A study of Homo sapiens with 6 samples.

Results

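The zinc finger genes of chromosome 19 were followed through the depletion of an amino acid in HT29, a human colorectal adenocarcinoma cell line. Members were all protein-coding genes on chromosome 19 whose symbol is ZNF followed by a number, with at most 1 further letter, in GENCODE release 44, a rule that uses no measured value. All 246 such genes were listed in both expression tables, out of 60676 genes. The cells, wild type by their label, grew for 48 h with all amino acids (untreated), without histidine or without tryptophan, and polyadenylated RNA of 2 samples per condition was sequenced. By the methods, RPMI was the base of the medium that lacked histidine and DMEM F-12 the base of the one that lacked tryptophan. Both depleted media were supplemented with dialyzed fetal bovine serum. The base and serum of the control medium are not given in the sources used here for the RNA samples. An effect of the base medium or serum and of the missing amino acid therefore cannot be told apart. The labels do not say that the 2 samples of a condition were separate cultures, and p-values then measure only the spread between these samples.

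A C2H2 zinc finger is a short loop of protein that a zinc ion holds in shape through a pair of cysteines and a pair of histidines, and rows of such fingers read DNA sequence. Many of these proteins also carry a KRAB box, which recruits the co-repressor TRIM28 and with it the histone methyltransferase SETDB1, so that bound DNA, often the sequence of an old retrotransposon, is packed into heterochromatin. Tandem duplication has laid these genes out on chromosome 19 in dense arrays of near-copies, several of them found only in primates.

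The array nature of the family was taken from position. Members were sorted along the chromosome and split wherever no member lay within 1 Mb, where a cluster needed at least 3 members, which gave 10 clusters of 3 to 59 genes and 8 scattered members. Cluster 4, from ZNF101 to ZNF254 at chr19:19668796-24129968 (GRCh38), lies beside the centromere on the short arm and holds 37 members. Cluster 5, from ZNF302 to ZNF792 at chr19:34677639-34964229, holds 5 members within 0.29 Mb. The largest, cluster 10 from ZNF628 to ZNF446 at chr19:55476617-58481230, holds 59 near the end of the long arm.

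The coding sequences show what the members share. In translations of the GENCODE transcripts they held a median of 12 fingers (range 1 to 36). Histidine codons made up a median of 6.86% of the codons of the members, against 2.43% over 19829 coding sequences of the genome, and 243 of the 246 members lay above the upper quartile of all genes, 3.17%. Tryptophan codons made up a median of 0.64%, against 1.13% over all genes. To show where the histidine codons sit, the coding bases of a finger from near the middle of the array are printed 5′ to 3′ for 3 members described below, from GENCODE release 44 on GRCh38, with histidine codons in capitals. The stretch of ZNF83 lies at chr19:52613548-52613610 on the minus strand, that of ZNF714 at chr19:21117607-21117669 on the plus strand and that of ZNF274 at chr19:58212874-58212936 on the plus strand, each within a coding exon.
ZNF83: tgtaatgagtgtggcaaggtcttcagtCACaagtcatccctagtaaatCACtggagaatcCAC
ZNF714: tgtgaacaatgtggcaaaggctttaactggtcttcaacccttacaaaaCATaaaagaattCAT
ZNF274: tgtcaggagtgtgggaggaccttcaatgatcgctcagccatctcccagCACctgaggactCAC

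ZNF83 had the largest share of histidine codons of all members, 10.3% (53 of 516), while ZNF274, a member with 5 fingers behind a long other part, had 3.37% (22 of 653). A KRAB box marker was matched in 162 members, 10 of them in cluster 4. The marker was tyrosine, any residue, aspartate or glutamate, valine or threonine, then methionine, valine, threonine or leucine, any residue and glutamate. A looser form that also took asparagine, added after the sequences were seen, was matched in 184 members, 27 of them in cluster 4. The median share of histidine codons was 6.78% in members that rose after histidine depletion, 7.07% in those that fell and 6.69% in those not called. For the calls after tryptophan depletion the same medians were 6.83%, 6.97% and 6.64%.

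The promoters of cluster 4 carry a further shared feature. RefSeq promoters (GRCh38.p14, 250 bases before to 50 after a start site) were matched to 216 of the 246 members. The word TCCAATCA, which holds the shorter CCAAT box, was found in all 29 matched promoters of cluster 4, in 19 of 24 of cluster 3 and in 4 of 5 of cluster 1, and in no other member promoter. It was picked by comparing words between clusters after the expression values were seen. Both strands were searched, and 542 of 35116 promoters in the table held the word (1.54%), against 52 of the 216 members (24.1%). In cluster 4 the 44 matches all lay on the strand of the gene, with the first base 24 to 88 bases upstream of the start (median 58). Windows of 60 bases upstream of the start are printed 5′ to 3′ on the strand of the gene, with the word in capitals, for members of cluster 4 that fell after both depletions, that were not called or that were silent, and for members of cluster 3 that rose or fell. The windows lie at chr19:21082089-21082148 on the plus strand (ZNF714), chr19:19900835-19900894 on the plus strand (ZNF93), chr19:21329411-21329470 on the minus strand (ZNF708), chr19:23395497-23395556 on the minus strand (ZNF91), chr19:19733133-19733192 on the minus strand (ZNF14), chr19:21836237-21836296 on the minus strand (ZNF43), chr19:11766939-11766998 on the plus strand (ZNF441) and chr19:11887722-11887781 on the plus strand (ZNF69).
ZNF714: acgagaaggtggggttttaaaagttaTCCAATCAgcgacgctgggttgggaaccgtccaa
ZNF93: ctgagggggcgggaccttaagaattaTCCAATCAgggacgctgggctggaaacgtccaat
ZNF708: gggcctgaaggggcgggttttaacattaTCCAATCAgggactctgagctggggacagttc
ZNF91: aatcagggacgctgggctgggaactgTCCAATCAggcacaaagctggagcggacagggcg
ZNF14: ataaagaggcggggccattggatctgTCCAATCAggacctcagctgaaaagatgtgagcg
ZNF43: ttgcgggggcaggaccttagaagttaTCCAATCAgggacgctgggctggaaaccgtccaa
ZNF441: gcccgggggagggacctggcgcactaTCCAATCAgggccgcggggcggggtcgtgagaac
ZNF69: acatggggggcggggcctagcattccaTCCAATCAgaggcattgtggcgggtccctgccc

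For members with the word, the calls are listed by cluster, and a difference between clusters was not tested. Of the cluster 4 members with the word, 19 were tested after histidine depletion, and 13 were lower and 1 higher. Of the cluster 3 members with it, 13 were tested, and 3 were lower and 6 higher. The 5 cluster 3 members tested without the word gave 0 lower and 3 higher. The 4 carriers in cluster 1 gave 2 higher and none lower. After tryptophan depletion, 14 of the 19 cluster 4 members tested with the word were lower and 1 was higher. In cluster 3, the 12 tested with the word gave 3 lower and 5 higher, and the 4 without it 1 lower and 1 higher. After histidine depletion, over all 36 tested members with the word, 16 were lower and 9 higher, against 46 lower and 53 higher of the 128 whose promoter lacked it, while 38.2% of all genes tested were lower and 39.1% higher. After tryptophan depletion 17 of 35 with the word were lower and 8 higher, against 35 lower and 48 higher of 123 without it and 34.8% lower and 36.1% higher of all genes tested. Outside cluster 4, members with the word were lower in 3 and higher in 8 of 17 cases after histidine depletion and lower in 3 and higher in 7 of 16 after tryptophan depletion. ETS-type words (CCGGAAG) were found in 44.4% of member promoters and in 10.3% of all promoters, and in 21 of the 29 promoters of cluster 4. The word TGATGNAA, in the form of a C/EBP-ATF element known from amino acid response genes, was found in 4 of the 216 member promoters (1.85%) and in 3.62% of all.

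Most members were expressed, at modest levels. Whole reads could be recovered from the deposited normalized counts, and the libraries held 46390819 to 64388876 of them. No read fell on 30 of the 246 members in any library, and 47 had at most 3 reads in each, where a count of 0 itself allows up to 3 reads. Of the rest, 186 members passed the filter of a mean of 10 normalised read counts in at least 1 comparison. Their median level in untreated cells was 80.3 normalised read counts per kilobase of exon, against 234 over the 13360 protein-coding genes tested. ZNF146, a protein made of little but fingers, had the highest level with 3084 per kilobase, followed by ZNF581 with 1484 and ZNF587 with 702. All members together took 2772 and 2743 reads per 1000000 in the untreated libraries. This was 2586 and 2532 without histidine and 2771 and 2804 without tryptophan. On the common scale used for the counts below, their sums were 140577 and 143545 in untreated cells, 150467 and 148315 without histidine and 150477 and 152814 without tryptophan. The libraries without histidine were thus the lowest as a share of reads but lay above the untreated ones on the common scale, so the direction of the summed level depends on the scaling.

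Values per library below are read counts of all 6 libraries scaled together. Log2 fold changes against untreated cells come from limma on log2(normalised count + 1) within each deposited table, whose scales for a library differed from the common one by no more than a factor of 0.974 to 1.00. On this scale the change of genes with few reads is understated. Near-copies can share reads. Moreover, 76 of the 186 members tested share over 5% of their exonic bases with another gene on either strand, and the treatment of strand in counting is not given in the sources used here. In such bulk samples fewer cells of a kind and less RNA per cell cannot be told apart. Of 11 colon epithelium markers, the summed counts were 429156 to 455535 in untreated cells, 525842 to 554280 without histidine and 599347 to 602679 without tryptophan. EPCAM, CDH1, VIL1 and KRT8 had at least 9735 counts in each of the 6 libraries, but the intestinal genes CDX1 (0 to 22 counts), CDX2 (172 to 469) and GPA33 (2.7 to 79) had far fewer. In both libraries without histidine CDX1, CDX2, GPA33, VIL1, CDH17, LGALS4 and KRT18 lay below both untreated libraries, and EPCAM, CDH1, KRT8 and KRT20 above them. KRT20 went from 10264 and 10759 counts to 34599 and 35063, and LGALS4 went from 54148 and 56465 to 17513 and 19660. In both libraries without tryptophan CDX1, CDX2, GPA33 and EPCAM lay below both untreated libraries, and the other markers of this list above them. KRT20 had 55379 and 54901 counts there. The leukocyte list was nearly all LYZ, with 64763 and 69381 counts in untreated cells, 12419 and 14442 without histidine and 38031 and 38058 without tryptophan. CD14 had 104 and 119, 51 and 63, and 380 and 367 counts, and PTPRC at most 3. The 6 markers of fibroblasts and muscle summed to 65 to 97 counts, the 3 of endothelium to 27 to 56 (without histidine PECAM1 was lower and VWF higher than in untreated cells) and the 3 of neurons to 8.0 to 22, with COL1A2, TPSAB1 and SNAP25 at 0 in all libraries. The part of these shifts in the results was not tested.

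After histidine depletion the family as a whole did not move one way, while most tested members of clusters 4 and 5 fell. Of 185 members tested, 66 rose and 72 fell by limma with Benjamini-Hochberg adjustment over all 18288 genes tested at a threshold of 0.05, of which 39.1% rose and 38.2% fell. The median log2 fold change of the members was -0.01, against 0.01 over all genes tested. In 8 of the 185 members the lower group averaged under 10 counts, so they passed the filter only through the higher group. All 8 were called. Changes beyond 2-fold were seen in 25.4% of the members tested and in 32.6% of all genes tested. ZNF genes of the same form on other chromosomes, 223 of them tested, fell in 112 cases and rose in 66, with a median of -0.23. Other protein-coding genes of chromosome 19 rose in 348 and fell in 297 of 787 cases, with a median of 0.09.

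Tryptophan depletion also left the members split. Of 179 tested, 60 rose and 59 fell, while 36.1% of the 17960 genes tested rose and 34.8% fell. The median was 0.04, against 0.01 over all genes. In 2 of the 179 members the lower group averaged under 10 counts, and these 2 were called. Changes beyond 2-fold were seen in 12.8% of the members and in 20.5% of all genes tested. ZNF genes on other chromosomes rose in 100 and fell in 61 of 223 cases, with a median of 0.09.

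In the direct comparison of the depletions, 57 of 181 members were higher after histidine depletion and 68 were lower. Over all 18276 genes tested 39.1% were higher and 37.8% lower. The median of the members was -0.02, against 0.02 over all genes. In 7 of the 181 members the lower group averaged under 10 counts, and 6 of these were called.

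**Figure D1:**
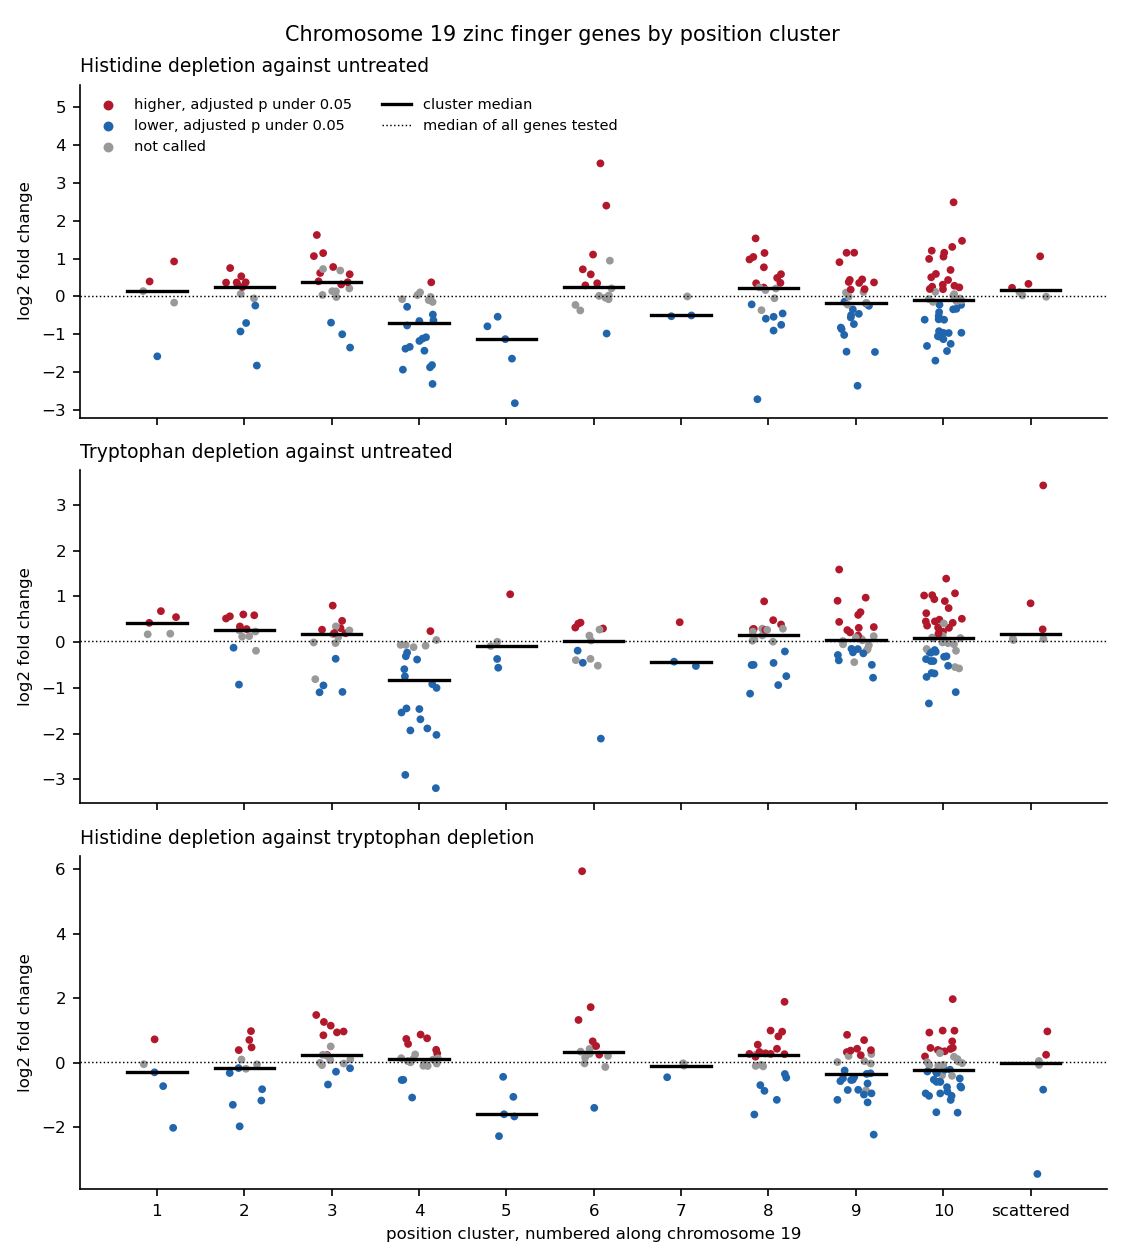
Log2 fold change (y axis) of each member that passed the filter, by position cluster along chromosome 19 (x axis), for each depletion against untreated cells and for histidine against tryptophan depletion. Red and blue points passed the test, grey points did not, bars are cluster medians and the dotted line is the median of all genes tested. Cluster 4 has medians of -0.71 and -0.83 after the depletions and cluster 5 of -1.13 and -0.09.

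Neighbours within a cluster differed somewhat less than members of different clusters. Neighbouring members of a cluster differed by a median of 0.68 on the log2 scale in 169 pairs after histidine depletion, and members of different clusters by 0.83. After tryptophan depletion these differences were 0.43 and 0.56, and in the direct comparison 0.63 and 0.71. The correlation of neighbours was 0.33, 0.36 and 0.20 in the same order, given as a description, since neighbours share libraries, base composition and in part reads.

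Cluster 4 fell after both depletions. Of its 37 members 22 were tested in each comparison. After histidine depletion 15 fell and 1 rose, with a median log2 fold change of -0.71, and after tryptophan depletion 16 fell and 1 rose, with a median of -0.83. Of all genes tested 38.2% and 34.8% fell. In each comparison 2 of the members that fell averaged under 10 counts in the depleted group and so passed the filter only through the untreated one. With a filter at a mean of 50 counts, 11 of 18 and 11 of 17 members tested fell and the medians were -0.56 and -0.38. The comparisons share the untreated libraries, so they are not independent. Summed over the cluster, the counts were 6887 and 6875 in untreated cells, 5087 and 4912 without histidine and 4504 and 4617 without tryptophan. The depleted libraries lay below both untreated libraries. The remaining 15 members had at most 3 reads in each library and 13 of them none, among them ZNF208 and ZNF729, which code for 36 and 34 fingers. ZNF43 had 1 read in 1 untreated library. Only 2 other protein-coding genes lie within the span of cluster 4, and neither passed the filter.

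ZNF714 was the member of cluster 4 with the most reads per kilobase in untreated cells. It had 1224 and 1160 normalised counts in untreated cells, 452 and 456 without histidine and 360 and 383 without tryptophan. Both depleted groups were lower than the untreated libraries without overlap. The log2 fold changes were -1.38 ± 0.07 (SE, limma, Benjamini-Hochberg adjusted p = 1.08e-14) and -1.69 ± 0.07 (limma, adjusted p = 2.88e-47). ZNF738 fell from 245 and 273 to 66 and 73.3 without histidine and to 55.5 and 71.4 without tryptophan, by 1.87 ± 0.15 and 2.03 ± 0.15 on the log2 scale, but shares 18.3% of its exonic bases with another gene. ZNF253 had 216 and 215 counts in untreated cells, 72.3 and 85.5 without histidine and 79.0 and 76.9 without tryptophan, and its log2 fold changes were -1.44 ± 0.15 and -1.46 ± 0.15.

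ZNF93, which silences a class of LINE-1 retrotransposons, was lower still in proportion. It had 50.3 and 43.8 counts in untreated cells, 9.0 and 8.1 without histidine and 5.3 and 5.5 without tryptophan. The log2 fold changes were -2.31 ± 0.32 and -2.90 ± 0.38, given as a description, since it passed the filter only through the untreated group. ZNF91, which silences SVA retrotransposons, behaved differently in the same array. Its counts of 539 and 485 in untreated cells stood beside 498 and 423 without histidine and 515 and 471 without tryptophan, and the groups overlapped. Its log2 fold changes of -0.15 ± 0.09 and -0.06 ± 0.08 did not pass the test (limma, adjusted p = 0.153 and 0.513), though the first passed when histidine replicate 1 was left out, at -0.27.

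Other members of cluster 4 filled the range between these. ZNF66 had 138 and 197 counts in untreated cells, 109 and 98.7 without histidine and 64.0 and 49.4 without tryptophan. It fell by 0.65 ± 0.16 and by 1.54 ± 0.17 on the log2 scale, and the first call was lost without untreated replicate 2, at -0.39, and in limma without the trend. ZNF431 was the only member of cluster 4 that rose after histidine depletion, from 740 and 671 counts to 930 and 885, and it fell to 558 and 529 after tryptophan depletion. ZNF493 was the only one that rose after tryptophan depletion, from 246 and 232 counts to 266 and 302, with 200 and 192 after histidine depletion. Both were named after their values were seen. ZNF14, ZNF506 and ZNF429 joined ZNF91 in passing the test in neither comparison. Between the depletions, 6 of 20 members tested were higher after histidine depletion and 3 were lower, beside 39.1% and 37.8% of all genes tested.

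**Figure D2:**
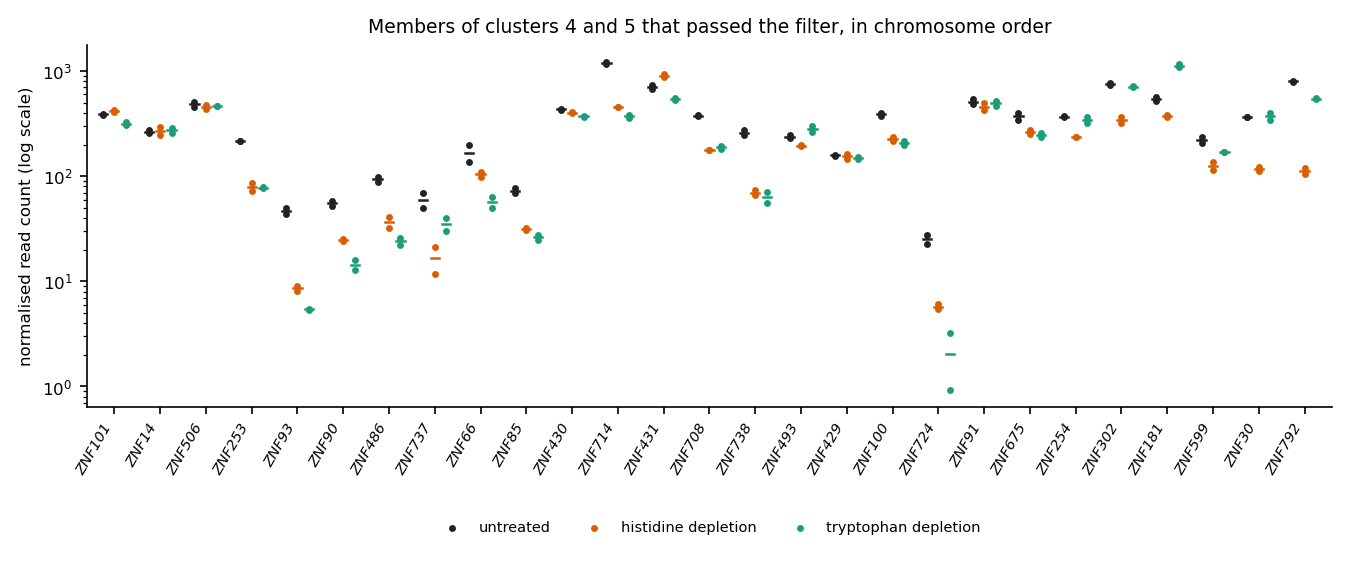
Normalised read counts per library (y axis, log scale) of the members of clusters 4 and 5 that passed the filter in at least 1 comparison with untreated cells, in chromosome order (x axis). Points are the 2 libraries of a group and short lines their mean. ZNF714 lies at 1160 to 1224 in untreated cells and at 360 to 456 in the depleted ones.

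The whole of cluster 5 fell after histidine depletion. All 5 members were lower than in untreated cells, with a median log2 fold change of -1.13. All 5 were also lower than after tryptophan depletion, with a median of -1.60, or 4 of them when histidine replicate 1 was left out. Against untreated cells tryptophan depletion left 1 higher and 2 lower (1 lower without untreated replicate 2), with a median of -0.09. Of all genes tested, 38.2% were lower without histidine than in untreated cells and 37.8% lower than without tryptophan, while tryptophan depletion gave 36.1% higher and 34.8% lower. The summed counts were 2647 and 2734 in untreated cells, 1017 and 1122 without histidine and 2935 and 2932 without tryptophan.

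ZNF792 had the largest fall of all members with at least 100 counts. Its 812 and 797 counts in untreated cells stood against 106 and 119 without histidine and 552 and 544 without tryptophan. All 3 groups were apart. It fell by 2.82 ± 0.10 on the log2 scale without histidine (limma, adjusted p = 9.97e-18) and by 0.56 ± 0.07 without tryptophan (limma, adjusted p = 1.26e-11), and the direct difference was -2.28 ± 0.09. Its neighbour ZNF30 had 367 and 370 counts in untreated cells, 111 and 122 without histidine and 402 and 344 without tryptophan. ZNF302 had 741 and 766, 321 and 364, and 718 and 708 counts in the same order. For both, the libraries without histidine lay apart from all others, and those without tryptophan did not pass the test against untreated cells.

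ZNF181 moved in opposite directions. It had 521 and 566 counts in untreated cells, 364 and 379 without histidine and 1091 and 1166 without tryptophan. The log2 fold changes were -0.54 ± 0.09 and 1.04 ± 0.07, and the direct difference of -1.60 ± 0.07 passed the test (limma, adjusted p = 1.70e-12). Of 178 members tested in both comparisons, which share the untreated libraries, 23 were called in opposite directions, beside 18.0% of the 17470 genes tested in both.

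Clusters 2, 3, 6, 8, 9 and 10 held both increases and decreases, with few decreases in clusters 3 and 6 after histidine depletion. After histidine depletion, higher and lower members numbered 7 and 4 of 13 tested in cluster 2, 9 and 3 of 19 in cluster 3, 7 and 1 of 16 in cluster 6, 10 and 7 of 22 in cluster 8, 10 and 14 of 29 in cluster 9, and 17 and 20 of 45 in cluster 10, beside 39.1% higher and 38.2% lower of all genes tested. The rises of ZNF569 and ZNF607 (cluster 6), ZNF404 (cluster 8) and ZNF304 (cluster 10) passed the filter only through the histidine-depleted libraries. The falls of ZNF577 and ZNF649 (cluster 9) passed it only through the untreated ones. After tryptophan depletion the same clusters gave 6 and 2 of 13, 6 and 4 of 17, 4 and 3 of 13, 6 and 7 of 21, 11 and 8 of 29, and 18 and 15 of 45, beside 36.1% higher and 34.8% lower of all genes tested. In cluster 1 these counts were 2 and 1, then 3 and 0 of 5 members, and in cluster 7 they were 0 and 2, then 1 and 2 of 3. Without cluster 4 the median of the members was 0.06 after histidine depletion, with 65 higher and 57 lower of 163, and 0.11 after tryptophan depletion, with 59 higher and 43 lower of 157.

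**Figure D3:**
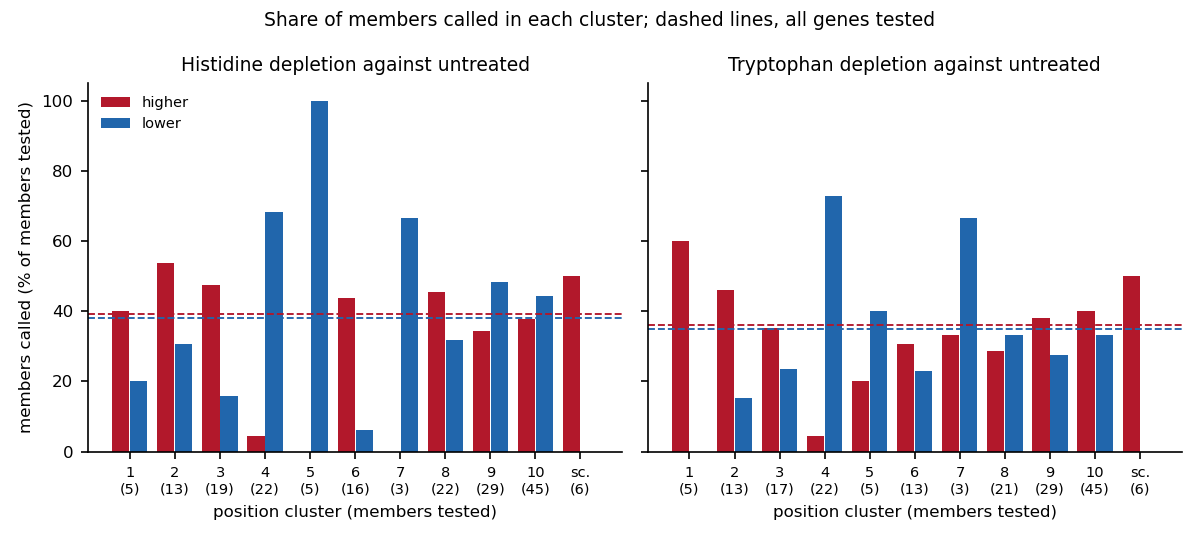
Share of the members tested in each position cluster that rose (red bars) or fell (blue bars) after each depletion, in percent, with the number tested in parentheses and sc. for scattered members. Dashed lines give the same shares over all genes tested, 39.1% and 38.2% after histidine and 36.1% and 34.8% after tryptophan depletion.

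Several members rose after both depletions. ZNF274, which binds the ends of other zinc finger genes and brings SETDB1 to them, had 573 and 552 counts in untreated cells, 1568 and 1529 without histidine and 1108 and 1196 without tryptophan. All 3 groups were apart. The log2 fold changes were 1.47 ± 0.07 (limma, adjusted p = 7.41e-16) and 1.02 ± 0.07 (limma, adjusted p = 2.44e-29). ZNF83 of cluster 9 had 924 and 855 counts in untreated cells, 2082 and 1861 without histidine and 2660 and 2707 without tryptophan, with log2 fold changes of 1.16 ± 0.07 and 1.59 ± 0.06. ZNF550 of cluster 10 had 454 and 437 counts, then 1097 and 1096 without histidine and 775 and 949 without tryptophan. For ZNF547 and ZNF329, lower in level, the increases were 1.15 ± 0.16 and 1.21 ± 0.18 without histidine and 0.74 ± 0.18 and 0.90 ± 0.17 without tryptophan. In each of these members both depleted groups were above the untreated libraries.

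Some members differed between the depletions. ZNF114, one of the scattered members, had 19.7 and 16.9 counts in untreated cells, 14.5 and 22.4 without histidine and 187 and 229 without tryptophan. Untreated and histidine-depleted libraries overlapped and the tryptophan-depleted ones lay far above. Its log2 fold change was 3.42 ± 0.21 after tryptophan depletion (limma, adjusted p = 5.99e-33), and the direct difference, histidine minus tryptophan depletion, was -3.45 ± 0.25 (limma, adjusted p = 1.23e-09). ZNF419 and its neighbour ZNF773 in cluster 10 showed the same order. ZNF419 had 579 and 561 counts in untreated cells, 544 and 490 without histidine and 1501 and 1499 without tryptophan. ZNF773, which shares 22.9% of its exonic bases with another gene, had 412 and 426, 418 and 374, and 873 and 892. Their direct differences were -1.54 ± 0.07 and -1.15 ± 0.08.

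The opposite order was seen in ZNF441 and ZNF791 of cluster 3, ZNF225 of cluster 8 and the scattered member ZNF507. ZNF791 had 1312 and 1348 counts in untreated cells, 2701 and 2832 without histidine and 1542 and 1523 without tryptophan. ZNF507 had 2918 and 2870.5, 5990 and 6006, and 3016 and 3106 counts. The histidine-depleted libraries were the highest in both. Direct differences were 0.85 ± 0.05 for ZNF791, 0.97 ± 0.04 for ZNF507, 1.15 ± 0.12 for ZNF441 and 1.00 ± 0.10 for ZNF225, and each passed the test.

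Among members that fell, ZNF580 and ZNF581 of cluster 10 are neighbours that share exonic bases with each other or a further gene (15.6% and 24.9%). ZNF580 had 1222 and 1207 counts in untreated cells, 619 and 620 without histidine and 700 and 740 without tryptophan. ZNF581 had 2267 and 2585, 920 and 1024, and 1891 and 1867 counts. Both were lower in both depletions, by 0.96 ± 0.07 and 0.76 ± 0.07 for ZNF580 and by 1.31 ± 0.07 and 0.37 ± 0.05 for ZNF581. ZNF551 of cluster 10 fell more without tryptophan, from 1373 and 1400 counts to 562 and 537, than without histidine, to 1110 and 1084, and the direct difference was 1.00 ± 0.06 (limma, adjusted p = 5.38e-11).

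Among members averaging at least 100 counts in the higher group, the largest falls outside clusters 4 and 5 after histidine depletion were those of ZNF575, ZNF358 and ZNF772. ZNF575 had 102 and 137 counts in untreated cells, 11.7 and 24.4 without histidine and 50.2 and 57.7 without tryptophan. ZNF772 had 205 and 181, 52.4 and 65.1, and 117 and 123 counts. In both genes the 3 groups were apart. ZNF358 had 157 and 235 counts in untreated cells, 47 and 60 without histidine and 212 and 211 without tryptophan, with 34% of its exonic bases shared. Without untreated replicate 2 its increase after tryptophan depletion, 0.13 ± 0.13, grew to 0.42 and passed the test.

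**Figure D4:**
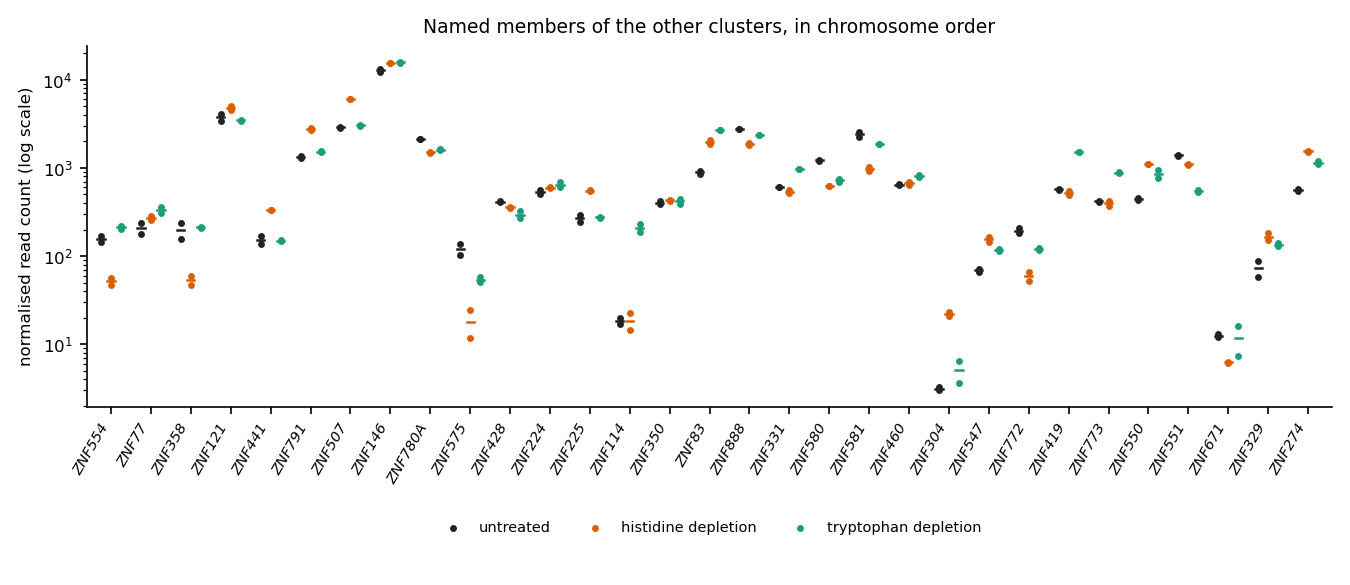
Normalised read counts per library (y axis, log scale) of members outside clusters 4 and 5, in chromosome order (x axis). Shown are members named by the rule that passed the filter in at least 1 comparison with untreated cells. Points are the 2 libraries of a group and short lines their mean. ZNF146 lies at 12267 to 15942 in all libraries, and ZNF114 at 187 and 229 only after tryptophan depletion.

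A few members were close to silent in at least 1 group. ZNF304 had 3 reads in each untreated library, 23 in each library without histidine and 6 and 4 without tryptophan. The ratio of the scaled reads was 7.0 (95% exact interval 3.0 to 20.2, for counting error only). ZNF569 of cluster 6, named after its values were seen, had 6 and 7 reads in untreated cells, 101 and 82 without histidine and 1 and 0 without tryptophan. ZNF724 of cluster 4, also named after its values were seen, shares 44.7% of its exonic bases. It had 25 and 23 reads in untreated cells, 6 and 6 without histidine and 3 and 1 without tryptophan. ZNF382, a gene known to be methylated in tumours, had at most 5 reads in any library and was not tested. ZNF671, another such gene, had 11.9 to 13.1 counts in untreated cells and passed the filter only beside tryptophan depletion, where it was not called.

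Other members have known roles. ZNF146 had 12267 and 13287 counts in untreated cells, 15642 and 15429 without histidine and 15594 and 15942 without tryptophan. It rose by 0.29 ± 0.05 and 0.30 ± 0.05 on the log2 scale, but by only 0.04, without passing the test, after histidine depletion with quantile normalization. ZNF350, a partner of BRCA1, had 390 and 417, 437 and 423, and 444 and 390 counts, and passed the test in neither comparison, except with quantile normalization after histidine depletion (0.33 against 0.10). ZNF331, an imprinted gene, had 607 and 615 counts in untreated cells, 520 and 559 without histidine and 965 and 968 without tryptophan. Its increase of 0.65 ± 0.07 after tryptophan depletion passed the test, and its difference of -0.17 ± 0.08 after histidine depletion missed it (limma, adjusted p = 0.0552). The latter passed with edgeR (-0.18), in the fit on all 6 libraries and with a replicate block.

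ZNF224, a repressor of the aldolase A gene, had 567 and 500 counts in untreated cells, 604 and 586 without histidine and 600 and 690 without tryptophan, with 42.4% of its exonic bases shared with a gene on the other strand. Its difference after tryptophan depletion, 0.26 ± 0.08, passed the test, but not with DESeq2, in limma without the trend or when tryptophan replicate 2 was left out (0.16). Its difference after histidine depletion, 0.17, did not pass, but did with quantile normalization (0.39), without untreated replicate 1 (0.26) and with a replicate block. ZNF460 rose by 0.31 ± 0.07 after tryptophan depletion and differed by 0.06 ± 0.08 after histidine depletion, which passed the test with quantile normalization only (0.27). The members with the most reads per kilobase in clusters 1, 7, 8 and 9 were ZNF77, ZNF780A, ZNF428 and ZNF888. ZNF780A had 2152 and 2141 counts in untreated cells, 1522 and 1488 without histidine and 1580 and 1626 without tryptophan, and fell by 0.50 ± 0.06 and 0.43 ± 0.05. ZNF888 fell by 0.56 ± 0.06 and 0.22 ± 0.05 and ZNF428 by 0.21 ± 0.09 and 0.50 ± 0.10. The first call of ZNF428 was lost in 6 alternatives, among them each library left out in turn and DESeq2, and its sign turned with quantile normalization (0.011). ZNF77 rose by 0.39 ± 0.13 and 0.68 ± 0.11, and the first call was lost in 5 alternatives: without untreated replicate 1 (0.19) or histidine replicate 1 (0.31), without a filter, in limma without the trend and with DESeq2.

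The partners of KRAB proteins changed in both directions but fell more often than they rose. Of 29 genes of the co-repressor machinery, all tested, 6 rose and 17 fell after histidine depletion (median -0.26), and 4 rose and 21 fell after tryptophan depletion (median -0.27). The shares of all genes tested were 39.1% higher and 38.2% lower without histidine, then 36.1% higher and 34.8% lower without tryptophan. TRIM28, which binds the KRAB box, had 36152 and 38110 counts in untreated cells, 44847 and 45474 without histidine and 31757 and 32021 without tryptophan. All 3 groups were apart, with log2 fold changes of 0.29 ± 0.06 and -0.23 ± 0.05. SETDB1, the methyltransferase of the complex, differed by -0.09 ± 0.05 and -0.13 ± 0.05, and only the second passed the test. UHRF1, which guides maintenance methylation of DNA, differed by -0.24 ± 0.05 and -2.80 ± 0.06. DNMT1, its methyltransferase, differed by -1.01 ± 0.05 and -2.27 ± 0.05. Members with the KRAB marker rose in 45 and fell in 43 of 124 cases after histidine depletion, and members without it rose in 21 and fell in 29 of 61. After tryptophan depletion these counts were 43 and 36 of 119 with the marker and 17 and 23 of 60 without it. After histidine depletion the shares were 36.3% higher and 34.7% lower with the marker and 34.4% and 47.5% without it, beside 39.1% and 38.2% of all genes tested. With the looser marker, 48 rose and 49 fell of 137. Of the 48 without it, 18 rose and 23 fell, so the order of the shares that rose turned. The first marker matched 10 of the 37 members of cluster 4 and the looser one 27. The part of cluster 4 in the shares by marker was not tested.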

How the data were processed

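RNA of HT29 cells was sequenced in 6 libraries, 2 for each of untreated, histidine-depleted and tryptophan-depleted cells. The authors used STAR 2.7.10a for alignment to GRCh38 and HTSeq 2.0.5 for counting on exons of gencode release 38, and divided the counts by DESeq2 size factors. These normalized counts, a signal with no negative values, were deposited in 1 table per depletion. Handling of molecular identifiers, strand and reads with several matches is not given in the sources used here. In each library all values were multiples of 1 step, and dividing by it left 100% of them within 0.01 of a whole read. Both tables hold the same reads for the untreated libraries. Replicates differed by more than counting noise (chi-square per degree of freedom 9.74, 4.40 and 1.94 for untreated, histidine-depleted and tryptophan-depleted cells).

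Gene types, positions and coding sequences came from gencode release 44, which matched 60357 of 60676 identifiers. Protein features were counted on translated gencode coding sequences. The members and lists were chosen with earlier results of these data known, and the looser KRAB marker and the promoter words after values were seen. Each depletion was tested against untreated cells inside its own table, because the tables had separate size factors. limma 3.58.1 (R 4.3.3, two-sided, with the mean-variance trend and without the robust option) was applied to log2(normalized count + 1) where a gene averaged 10 or more across the libraries compared. P-values were adjusted by Benjamini-Hochberg over all genes tested, with a threshold of 0.05. For the direct comparison, whole reads of the 6 libraries received common median-of-ratios factors. Medians over members are descriptions without a test. The scripts were tested on simulated counts. Named members were, per comparison, the 5 that rose most and the 5 that fell most among those called (3 and 3 in the direct comparison) averaging at least 100 in the higher group with no overlap, the member with most reads per kilobase of each cluster, members with at most 3 reads in 1 group and at least 100 counts in the other, and 15 members chosen by name.

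Alternatives changed the pseudocount (0.5 or 8), the filter (none, or a mean of 50), the trend, the normalization (quantile) or the test (edgeR 4.0.16 with TMM, DESeq2 1.42.0, both on whole reads). Others added a block for the replicate number, a fold limit or other libraries to the fit, left out each library, kept members sharing at most 5% of exonic bases, removed a trend with GC content and length by loess (span 0.3), or set cluster gaps of 0.5 and 2 Mb. Python 3.11.15, pandas 2.3.3, numpy 2.4.6, Biopython 1.88 and matplotlib 3.10.9 were used.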

Additional observations from a re-analysis of the deposited data

Results flagged for a closer look

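Of the 23 members called in opposite directions, 3 belong to those named by the rule. For these 3 members the effects of the depletions against the same untreated libraries passed the test with opposite signs, and the difference between the depletions was itself tested. ZNF554 of cluster 1 had 144 and 170 normalised counts in untreated cells, 47 and 56 without histidine and 222 and 201 without tryptophan. Its log2 fold changes were -1.58 and 0.42, and its direct difference was -2.02 (limma, Benjamini-Hochberg adjusted p = 1.94e-09). The increase was not called by DESeq2 (0.41) or without tryptophan replicate 1 (0.35). ZNF181 of cluster 5 had log2 fold changes of -0.54 and 1.04, and a direct difference of -1.60 (limma, adjusted p = 1.70e-12). ZNF121 of cluster 2 had 0.37 and -0.12, and a direct difference of 0.48 (limma, adjusted p = 2.55e-06). Its libraries without tryptophan overlapped the untreated ones, and this fall was lost in 9 alternatives, among them edgeR, DESeq2 and the fit without untreated replicate 1. Its rise without histidine was lost in limma without the trend.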

How the results depend on the processing

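Of 1647 values of named members under alternatives, 1589 kept their direction and side of the threshold, 45 lost the call, 12 gained it and 1 reversed, ZNF428 after histidine depletion with quantile normalization (0.011). With a fold change of at least 2, members higher and lower numbered 18 and 29 after histidine depletion, 7 and 16 after tryptophan depletion, and 8 and 21 between the depletions, of 185, 179 and 181 tested. Of all genes tested, 16.4% and 16.1%, 10.0% and 10.4%, and 16.5% and 15.7% lay past this fold, up and down. In cluster 4, 10 then fell after histidine depletion and 10 after tryptophan depletion, and in cluster 5, 3 after histidine depletion. Among members sharing at most 5% of exonic bases, a smaller set, the counts were 39 and 43 of 109 tested, 34 and 41 of 109, and 36 and 43 of 108. These are 35.8% and 39.4%, 31.2% and 37.6%, and 33.3% and 39.8%. The shares of all genes tested were 39.1% and 38.2%, 36.1% and 34.8%, and 39.1% and 37.8%. With quantile normalization, the median over all genes tested was -0.0165, 0.0226 and -0.00534 in the same order. With edgeR it was -0.0115 between the depletions. The median of the members was 0.085, 0.097 and 0.031 in the same order with quantile normalization. It was -0.11, 0.093 and -0.15 with the GC and length trend removed. At most 5% shared, it was -0.022 after tryptophan depletion and 0.016 between the depletions, where it was 0.019 without a filter and -0.049 with edgeR. Leaving out 1 library gave -0.074 to 3.06e-06 after histidine depletion, 0.011 to 0.085 after tryptophan depletion and -0.061 to 0.012 between the depletions. The cluster 4 median after histidine depletion was -0.56 at a mean of at least 50, -0.59 with quantile normalization, -0.97 with the trend removed and -0.87 to -0.68 with 1 library left out. After tryptophan depletion it was -0.67 without a filter, -0.38 at a mean of at least 50 and -0.59 at most 5% shared. The cluster 5 median was -0.91 with quantile normalization and -1.39 at most 5% shared after histidine depletion, and -1.49 and -1.36 between the depletions, or -1.75 with the trend removed. A gap of 2 Mb merges cluster 5 with cluster 6 into 31 members, with medians of 0.014 and 0.23 (after histidine depletion and between the depletions). For changes in medians other than by merging, the cause was not tested. Replicate numbers did not pair the libraries (correlation of deviations 0.050, 0.0074 and -0.034). A replicate block gave 70 higher and 74 lower after histidine depletion, 60 and 59 after tryptophan depletion, and 57 and 68 between the depletions. Members with few reads have wide counting intervals, such as 3.0 to 20.2 for ZNF304.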
